A study of Rattus norvegicus with 36 samples.

Results

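Normal-looking colon of Pirc rats was compared with colon of wild-type (WT) rats, both on control diet, in 6 of the 18 RNA-seq libraries and of the 36 samples of the series. The members were taken by their labels, as the 3 libraries PCN1 to PCN3 (Pirc, control diet, normal-looking colon) and the 3 libraries WCN1 to WCN3 (WT, control diet, normal colon). Pirc rats were F344/NTac males that carry the Apc am1137 allele, a nonsense mutation of the tumor suppressor gene Apc, and WT rats were F344 males without it. All were fed AIN93 diet from 4 weeks of age and were killed at 30 weeks. The allele is carried in every cell of a Pirc rat, so the comparison is of whole animals of different genotype and not of an allele switched on in the colon alone. The study matched normal-looking Pirc colon to a colon tumor of the same rat. Genotype and the bearing of colon tumors therefore cannot be told apart in this comparison. Levels are given as RPKM, in which the reads of a gene are scaled by its length and by the depth of its library, and log2 differences are on the log2(RPKM + 0.5) scale, which understates the difference of low genes. Matching groups on spinach (WSN and PSN) and Pirc adenomas on control diet (PCT), also with 3 libraries each, are cited where they bear on a gene.

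The protein made from Apc holds beta-catenin in the complex that marks it for destruction, and with it keeps in check the Wnt program that TCF factors drive in crypt stem cells and Paneth cells. Paneth cells sit at the crypt base of the small intestine, where they release alpha-defensins and other antimicrobial products, and the normal colon of rodents has few or none of them. The colon surface is lined by absorptive cells that burn butyrate and by goblet cells that make mucus, above a wall of smooth muscle.

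RNA depth relative to the median library was 0.624 to 1.525 (median 1.114) in WCN and 0.854 to 0.967 (median 0.869) in PCN, while read totals are unknown. Pearson correlations of log2 levels were 0.961 to 0.979 among WCN libraries, 0.965 to 0.971 among PCN libraries and 0.944 to 0.976 between the groups, so none of the 6 was deposited under a second name. Some abundant transcripts are listed at 0 in this table (Col1a2 and Ndufa1 at 0 in all 18 libraries, Hsp90aa1 at no more than 0.01 RPKM), so a value of 0 was read only as listed at 0. The epithelial genes Pigr (2690 to 4265 RPKM over the 6 libraries) and Cdx2 (71.6 to 499.8 RPKM) were high. They mark gut epithelium and do not tell colon from small intestine. The smooth muscle gene Myh11 (115 to 420.1 RPKM) was present as well, so the pieces held some smooth muscle. The study calls these tissues normal or normal-looking colonic mucosa, and which muscle layer they held is not labelled.

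Of 11544 genes tested with limma, 15 differed between PCN and WCN at an adjusted p under 0.05, which is 0.130% of those tested. Of these, 12 rose in PCN (0.104%) and 3 fell (0.0260%). In all 15 the 3 PCN libraries lay apart from the 3 WCN libraries, as they did in 21.4% of all genes. The 15 were picked on these same values, so their separation is no support of its own. The risen genes included the 4 alpha-defensins Defa24, Defal1, Defa6 and Defa8, and Zc3h12a, Duox2, Icos, Pfkfb3, Igf1, Ccdc50 and LOC691352. The fallen genes were Cmah, Hoxa13 and Ppp1r14a. At an unadjusted p under 0.05 there were 1545 genes (13.4%), of which 842 were higher in PCN (7.29%) and 703 lower (6.09%), and the median log2 difference of all genes was 0.01. Calls varied with the libraries kept: leaving out 1 library at a time gave 3 to 14 calls, with 3 without WCN3, 4 without PCN3, 5 without PCN2 and 7 without WCN1, and 4 to 9 without PCT1, PCT2, PCT3, PSN1, PSN2, PSN3, PST2, PST3 or WSN1. Cmah, Defa24 and Defal1 were called in all 18 of these fits, Zc3h12a in 15, Defa6 and Defa8 in 13, and the other 9 genes in no more than 6. A fit over the 12 normal colon libraries, with no more than 1 library from a rat, called only Cmah, Defa24, Defal1 and Zc3h12a. The 6 libraries alone called 0 genes.

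**Figure D1:**
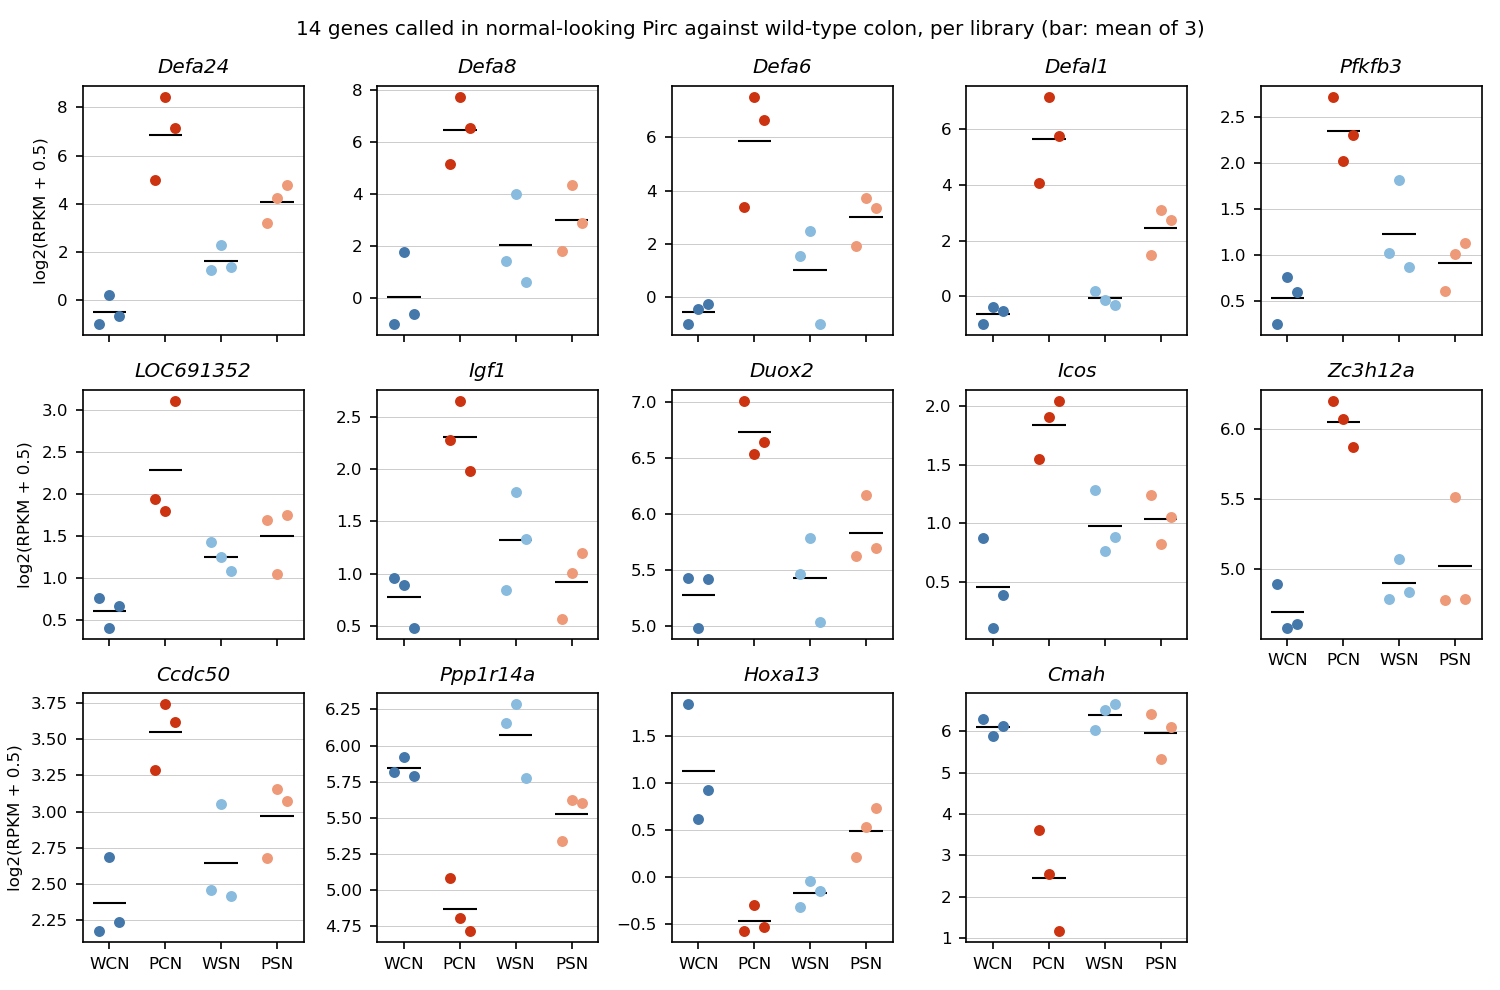
Level of 14 of the 15 called genes as log2(RPKM + 0.5) in every library of WCN, PCN, WSN and PSN, 1 point for each library and a bar at the mean of 3. In all 14 genes, which were picked on these values, the PCN points lie clear of the WCN points, as in 21.4% of all genes. The 4 defensins span from no more than 2.89 RPKM in WCN to 10.1 RPKM or more in PCN.

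Alpha-defensins showed the largest rises. These are small secreted peptides that kill bacteria, made in rodents mainly by Paneth cells. Defa24 was at 0, 0.66 and 0.12 RPKM in WCN1, WCN2 and WCN3 and at 31.3, 341.6 and 139.9 RPKM in PCN1, PCN2 and PCN3. Every PCN library was thus far above every WCN library, and PCN2 was highest and PCN1 lowest within the Pirc group. The log2 difference was 7.34 ± 0.70 (SE; limma, adjusted p = 0.000181). Defal1, an alpha-defensin-like gene, was at 0, 0.26 and 0.19 RPKM in WCN and at 16.5, 142.2 and 53.9 RPKM in PCN, in the same order of Pirc libraries (log2 difference 6.31 ± 0.60, adjusted p = 0.000181 by limma). In a bulk sample, fewer or more cells of a type and less or more RNA for each cell cannot be told apart.

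Defa6 was at 0, 0.24 and 0.35 RPKM in WCN and at 10.1, 179.7 and 98.4 RPKM in PCN. Its log2 difference was 6.40 ± 0.99 (limma, adjusted p = 0.0252). Defa8 was at 0, 2.89 and 0.16 RPKM in WCN and at 34.8, 209.6 and 93.1 RPKM in PCN, a log2 difference of 6.41 ± 0.99 with the same adjusted p. Both genes were again highest in PCN2 and lowest in PCN1, with no overlap between genotypes. Their calls were lost without PCN2 (adjusted p = 0.105 for both), PCN3, PCT1, WCN1 or WCN3, where the adjusted p from limma reached 0.141 for Defa6 (without PCN3) and 0.175 for Defa8 (without WCN3), with log2 differences still at 5.57 or more and 5.79 or more.

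Defa9, at 0, 6.72 and 0.49 RPKM in WCN and 35.8, 183.7 and 56.6 RPKM in PCN, missed the threshold (log2 difference 5.57 ± 1.08, limma adjusted p = 0.0761). RatNP-3b, a defensin of the neutrophil type, was at 6.93, 3.10 and 5.73 RPKM in WCN and at 23.8, 51.4 and 19.2 RPKM in PCN (log2 difference 2.41, adjusted p = 0.193 by limma). Neither gene overlapped between the groups, and in both PCN2 was highest. Of the 12 alpha-defensin genes listed, 11 had an entry, 6 passed the filter on low values and 4 were called, while Defa5, Defa7, Defa10 and Np4 were listed at 0 in all 18 libraries and Defa11 in the 6 libraries compared. A defensin had to be high somewhere to pass that filter, so the share of the 6 that was called is no support of its own. Alpha-defensin transcripts are near copies of each other, and how reads were split among them is uncertain.

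In RefSeq's order on rat chromosome 16 (GRCr8) the genes stand as Defa5, Defa24, Defal1, Defa6, Defa7, Defa8, Defa9, Np4, Defa10, Defa11 and RatNP-3b, so the 4 called genes and Defa9 lie on one side of the cluster, with Defa7 among them listed at 0. Of 10 genes of other Paneth cell products 7 were tested and none was called. Of these 3 (42.9%) were higher and 1 (14.3%) was lower without overlap, beside 10.9% and 10.4% of all genes, and the median log2 difference was 0.49. Itln1, an intestinal lectin of goblet and Paneth cells, was at 2765, 1829 and 1774 RPKM in WCN and at 1434, 1062 and 707 RPKM in PCN (log2 difference -1.02, limma adjusted p = 0.295). The matrilysin gene Mmp7, whose product activates pro-defensins in the mouse, was at 0, 0.47 and 0.10 RPKM in WCN and at 2.59, 54.5 and 3.62 RPKM in PCN (log2 difference 3.74, limma adjusted p = 0.178). Its PCN libraries were all higher than the WCN libraries, and PCN2 stood far above the other Pirc libraries.

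Promoters were searched because alpha-defensin genes and Mmp7 are known targets of TCF factors in the mouse. Those of Defa9 and Mmp7 are shown because they alone, of 20 genes with a window, held a match. Neither gene was called, and the 4 called defensins had no window, so their promoters were not searched. The sequence CTTTGAT was searched on both strands (ATCAAAG when read on the opposite strand) in the 250 bases before each RefSeq start (GRCr8), a search chosen after the values were seen. A match was found in Defa9 (chr16:77184018-77184267, plus strand) with its first base 146 bases before the start, and in Mmp7 (chr8:13132793-13133042, plus strand) 13 bases before it, both on the opposite strand. The sequences run 5′ to 3′ with the match in capitals.
Defa9: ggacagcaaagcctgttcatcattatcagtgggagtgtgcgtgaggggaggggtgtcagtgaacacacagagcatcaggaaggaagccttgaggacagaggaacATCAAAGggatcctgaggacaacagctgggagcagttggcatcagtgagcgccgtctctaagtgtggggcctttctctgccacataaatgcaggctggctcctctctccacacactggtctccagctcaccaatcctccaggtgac
Mmp7: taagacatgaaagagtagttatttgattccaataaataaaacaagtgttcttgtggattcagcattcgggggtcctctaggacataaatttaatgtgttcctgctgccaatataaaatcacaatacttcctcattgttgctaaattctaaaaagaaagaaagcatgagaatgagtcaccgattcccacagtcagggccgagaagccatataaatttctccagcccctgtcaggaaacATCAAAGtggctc
By comparison, 1054 of 33469 windows of the same length (3.15%), and 193 of the 8798 windows of genes tested here (2.19%), hold the motif. In all, 2 of the 20 genes with a window had a match. Windows of RatNP-3b, Np4, Defa11, Pla2g2a and the 7 called genes with a window (Zc3h12a, Icos, Duox2, Pfkfb3, Ppp1r14a, Hoxa13 and Igf1) held none, nor did 7 of other Paneth cell products. A match is a run of letters and not a measured site.

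Cmah fell the most among called genes. It encodes the hydroxylase that turns the sialic acid Neu5Ac into Neu5Gc on its nucleotide carrier. Cmah was at 78.2, 58.5 and 69.6 RPKM in WCN (68.7 ± 9.86, SD, n = 3) and at 11.8, 5.32 and 1.75 RPKM in PCN (6.29 ± 5.10). PCN3 was lowest, and the highest PCN library was far below the lowest WCN library. The log2 difference was -3.66 ± 0.43 (limma, adjusted p = 0.00107), and it stayed between -4.25 and -3.02 with an adjusted p of no more than 0.0123 whichever library was left out. Adenomas on control diet (PCT) had 0.71, 0.39 and 0.54 RPKM of Cmah.

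The list of sialic acid genes as a whole did not fall with Cmah. Of 30 listed genes 24 were tested, and Cmah was the only one called. The list had 3 genes higher without overlap and 3 lower, Cmah among them (12.5% each), near the 10.9% and 10.4% of all genes. Its median log2 difference was 0.09, which was -0.02 without PCN3 and -0.06 without WCN3. Gne, the enzyme that starts sialic acid synthesis, was at 597, 573 and 510.4 RPKM in WCN and at 543, 508 and 639 RPKM in PCN, a log2 difference of 0.00 ± 0.19. St3gal4, a sialyltransferase, was at 6.97, 8.87 and 13.4 RPKM in WCN and at 19.5, 34.3 and 17.4 RPKM in PCN (log2 difference 1.23, limma adjusted p = 0.191), so that its groups did not overlap but the difference missed the threshold.

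Zc3h12a and Duox2 rose by a like amount and with little spread. Zc3h12a encodes an RNase that cuts transcripts of inflammatory genes. It was at 29.2, 23.5 and 23.9 RPKM in WCN (25.5 ± 3.21) and at 73.0, 66.8 and 58.1 RPKM in PCN (66.0 ± 7.46), a log2 difference of 1.35 ± 0.20 (limma, adjusted p = 0.0176). The call was lost without PCN1, PCN2 or WCN3, with an adjusted p of up to 0.128 (without WCN3). Duox2, an epithelial oxidase that releases hydrogen peroxide into the lumen, was at 42.4, 31.1 and 42.2 RPKM in WCN and at 128.2, 92.0 and 99.2 RPKM in PCN (log2 difference 1.45 ± 0.25, adjusted p = 0.0441 by limma). The lowest PCN library had more than the highest WCN library in both genes.

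Duoxa2, the partner that Duox2 needs to leave the endoplasmic reticulum, had a similar spread of levels without passing the test. It was at 20.5, 11.4 and 29.0 RPKM in WCN and at 80.5, 68.9 and 59.6 RPKM in PCN (log2 difference 1.84 ± 0.42, limma adjusted p = 0.114). The list of epithelial host defense genes divided evenly, with 11 of its 21 tested members above 0 and 10 below, 1 call (Duox2) and a median of 0.02 (-0.11 without WCN1 to 0.20 without WCN3).

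Icos, a costimulatory receptor of T cells, was at 1.33, 0.58 and 0.81 RPKM in WCN and at 2.43, 3.25 and 3.62 RPKM in PCN, a log2 difference of 1.38 ± 0.24 (limma, adjusted p = 0.0441). It was the only call among 22 tested T cell and NK genes, of which 19 were above 0 (51.1% of all genes were). Of the 22, 7 were higher in PCN without overlap, which is 31.8% where 10.9% of all genes were, and the list's median log2 difference was 0.55. Ctla4, an inhibitory receptor of activated and regulatory T cells, was at 0.34, 0 and 0.35 RPKM in WCN and at 1.33, 2.58 and 0.50 RPKM in PCN (log2 difference 1.33, limma adjusted p = 0.246). Cd3g, a chain of the T cell receptor complex, was at 23.8, 8.24 and 18.9 RPKM in WCN and at 13.6, 17.5 and 8.68 RPKM in PCN, with overlap. The adjusted p for Icos reached 0.189 without WCN3.

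Pfkfb3, which sets the level of an activator of glycolysis, was at 0.69, 1.20 and 1.01 RPKM in WCN and at 6.04, 3.56 and 4.43 RPKM in PCN (log2 difference 1.81, limma adjusted p = 0.0441). Igf1, a growth factor made in the gut by stromal cells, was at 1.45, 1.35 and 0.90 RPKM in WCN and at 4.35, 5.79 and 3.46 RPKM in PCN (log2 difference 1.53, limma adjusted p = 0.0485). Both were low genes with a complete separation of the groups.

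Ccdc50, a coiled-coil protein that binds ubiquitin, was at 4.02, 5.93 and 4.22 RPKM in WCN and at 9.25, 12.8 and 11.7 RPKM in PCN (log2 difference 1.18, limma adjusted p = 0.0441). LOC691352, named here by its identifier only, was at 1.19, 0.83 and 1.09 RPKM in WCN and at 3.34, 2.98 and 8.10 RPKM in PCN (log2 difference 1.67, limma adjusted p = 0.0441). Duox2, Pfkfb3, Igf1, Ccdc50 and LOC691352 lie close to the threshold: each was called in no more than 4 of the 18 fits that left out 1 library, with an adjusted p of up to 0.255 (Igf1 without WCN3), and LOC691352 in none. Their log2 differences stayed at 1.08 or more in all those fits.

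Hoxa13, a transcription factor that sets hindgut identity, fell from 3.06, 1.03 and 1.39 RPKM in WCN to 0.17, 0.31 and 0.19 RPKM in PCN (log2 difference -1.59 ± 0.29, limma adjusted p = 0.0441). The gene was low in all libraries and was called in 1 of the 18 fits that left out a library, with an adjusted p of 0.218 without WCN1. It was the only call among 15 tested Hox genes, of which 10 were above 0. Hoxb13, the Hox gene with the highest level here, was at 338, 706 and 124.2 RPKM in WCN and at 612, 433 and 571 RPKM in PCN (log2 difference 0.78, limma adjusted p = 0.524), and its groups overlapped.

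**Figure D2:**
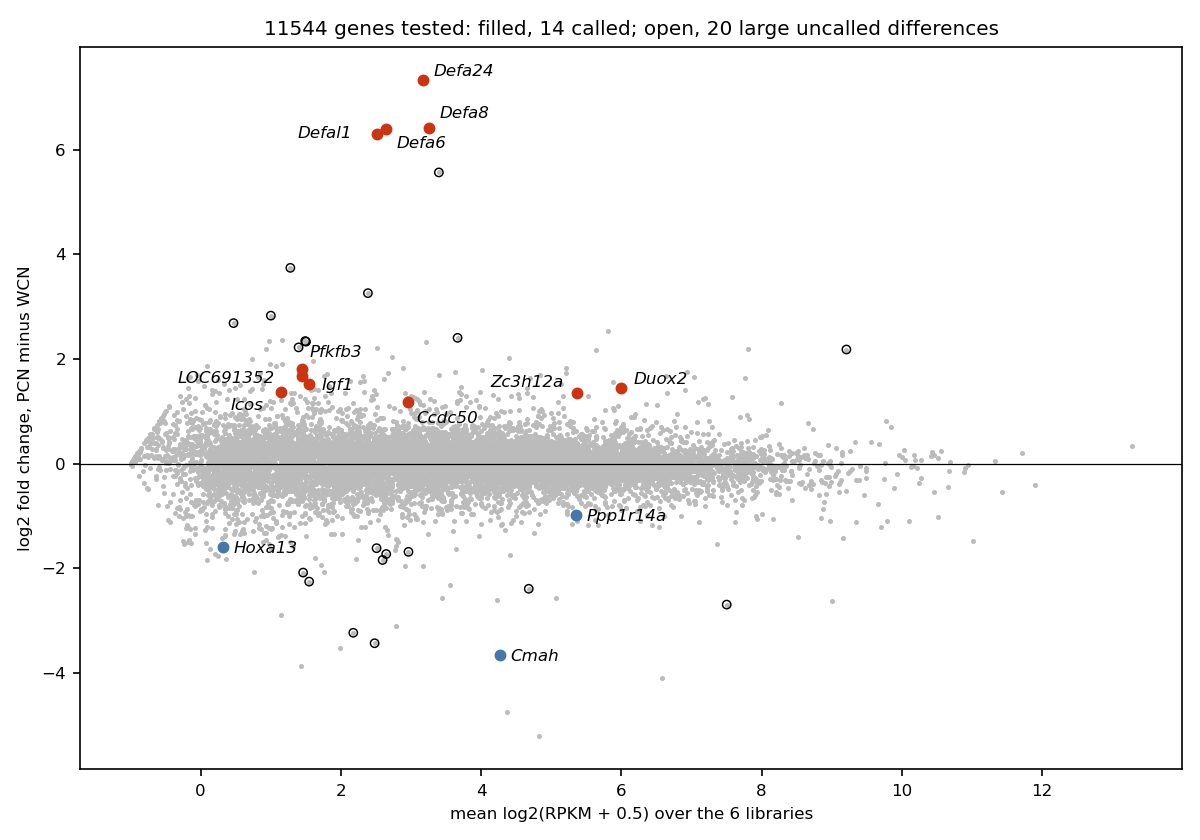
Log2 difference between PCN and WCN for each of 11544 genes (vertical axis) against its mean log2(RPKM + 0.5) over the 6 libraries (horizontal axis). Of the 15 called genes 14 are filled and open points are the 10 largest rises and 10 largest falls among uncalled genes with an unadjusted p under 0.01, no overlap and a mean of at least 5 RPKM. The defensins stand at the top, between 6.31 and 7.34, and Cmah at -3.66.

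Smooth muscle genes were lower in PCN throughout. All 29 tested genes of the smooth muscle list had a log2 difference below 0 (48.9% of all genes did), with a median of -0.75 (-0.44 without PCN2), and 16 of them (55.2%) were lower without overlap where 10.4% of all genes were. One was called: Ppp1r14a, an inhibitor of myosin phosphatase, fell from 55.8, 60.2 and 54.8 RPKM in WCN (56.9 ± 2.87) to 33.4, 27.5 and 25.8 RPKM in PCN (28.9 ± 3.99), a log2 difference of -0.97 ± 0.17 (limma, adjusted p = 0.0441). Its groups were far apart relative to their spread, though the call was lost in 13 of the 18 fits that left out a library (adjusted p up to 0.194, without PCN3).

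Actg2, the actin of visceral smooth muscle, was at 1091, 913 and 803 RPKM in WCN and at 446, 197 and 483 RPKM in PCN (log2 difference -1.41 ± 0.59, limma adjusted p = 0.313). Tagln, an actin-binding protein of smooth muscle, was at 1365, 1347 and 1180.5 RPKM in WCN and at 964, 372 and 626 RPKM in PCN (log2 difference -1.09 ± 0.39, limma adjusted p = 0.250). PCN2 was lowest in both, and the groups did not overlap. Averaged over the 29 genes, the level relative to the WCN mean was 0.13, 0.00 and -0.12 log2 units in the WCN libraries and -0.37, -1.22 and -0.58 in PCN1, PCN2 and PCN3. How much muscle each piece of colon held is not labelled, and its part in the other differences was not tested. Neuronal, glial and pacemaker genes had a median of -0.43, with 15 of 18 below 0 and none called.

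**Figure D3:**
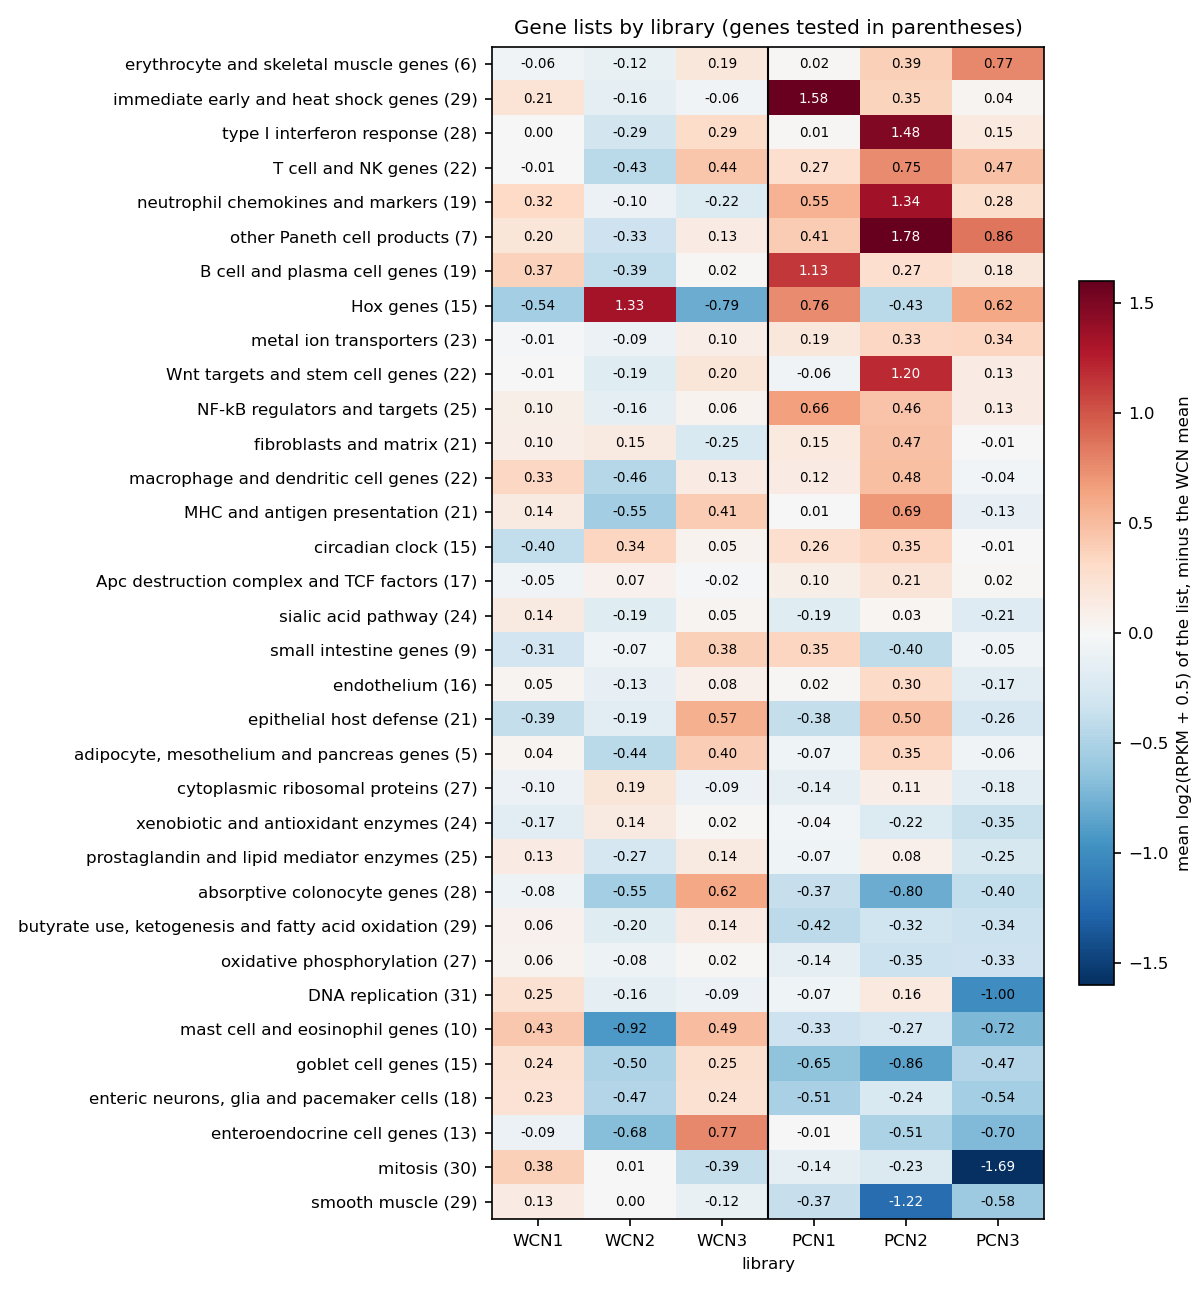
Mean log2 level of the tested members of 34 gene lists in each of the 6 libraries, relative to the mean of the 3 WCN libraries, with lists sorted by their median log2 difference. Smooth muscle and mitosis lie at the low end (medians -0.75 and -0.68), and single libraries carry several of the shifts, such as PCN2 in interferon genes (1.48), PCN1 in immediate early genes (1.58) and PCN3 in mitosis (-1.69).

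Genes of mitochondrial energy use had differences mostly below 0. Of 27 tested genes of oxidative phosphorylation 25 were below 0 (48.9% of all genes) and 16 (59.3%) were lower without overlap (10.4% of all genes), with a median log2 difference of -0.31 and no call. Ndufb5, a subunit of complex I, was at 176.1, 126.3 and 147.1 RPKM in WCN and at 99.8, 97.3 and 103.7 RPKM in PCN (log2 difference -0.56 ± 0.18, limma adjusted p = 0.223). The list of butyrate use, ketogenesis and fatty acid oxidation had 25 of 29 genes below 0, 13 (44.8%) lower without overlap, again beside 10.4% of all genes, and a median of -0.31. Eci1, an isomerase needed to burn unsaturated fatty acids, was at 31.6, 38.8 and 42.6 RPKM in WCN and at 24.6, 23.5 and 19.9 RPKM in PCN (log2 difference -0.71 ± 0.18, limma adjusted p = 0.161). Neither gene overlapped between the groups. On spinach the medians of these lists were -0.09 and 0.06.

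Goblet and absorptive cell genes leaned lower without passing the test. Of 15 tested goblet cell genes 13 were below 0 (48.9% of all genes were), with a median of -0.42. In that list 2 genes (13.3%) were lower without overlap, near the 10.4% of all genes. Of 28 absorptive colonocyte genes 17 were below 0 (median -0.30). There 1 gene was lower and 1 higher without overlap (3.57% each), under the 10.4% and 10.9% of all genes. The goblet median was -0.18 without PCN2, -0.19 without WCN3, -0.24 without WCN1 and -0.79 without WCN2, and the absorptive median was -0.10 without WCN3, -0.17 without PCN2 and -0.46 without PCN1. Agr2, which helps fold mucin in the endoplasmic reticulum, was at 1933, 1309 and 1627 RPKM in WCN and at 880.0, 702 and 681 RPKM in PCN (log2 difference -1.10 ± 0.34, limma adjusted p = 0.203). Guca2a, the precursor of guanylin, was at 3187, 2017 and 6391 RPKM in WCN and at 1233, 1314 and 1169.7 RPKM in PCN (log2 difference -1.48 ± 0.47, limma adjusted p = 0.223). Neither gene overlapped between the groups, and their PCN libraries were close to each other. Tff3, also a goblet cell gene, did overlap, at 1412, 2445 and 2309 RPKM in WCN and 2449, 841 and 2794 RPKM in PCN (log2 difference -0.16). Retnlb, an antibacterial goblet cell protein, was at 166.2, 55.5 and 128.3 RPKM in WCN and at 0, 104.2 and 0.71 RPKM in PCN, so that PCN2 lay within the WCN range while PCN1 and PCN3 were at or near 0. Both lists went the other way on spinach (medians 0.38 and 0.34).

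Cell cycle genes were low mainly in PCN3. All 30 tested genes of mitosis were below 0 (median -0.68) and 28 of 31 of DNA replication were (median -0.33), but none was called. Only 3 (10%) and 2 (6.45%) of them were lower without overlap, no more than the 10.4% of all genes. Averages relative to WCN for the mitosis list were -0.14, -0.23 and -1.69 in PCN1, PCN2 and PCN3. Without PCN3 the medians were -0.16 and 0.01, and the DNA replication median was -0.18 without WCN1 and -0.54 without PCN2. Cdk1, the kinase that drives entry into mitosis, was at 42.1, 31.3 and 23.5 RPKM in WCN and at 26.3, 21.6 and 6.48 RPKM in PCN (log2 difference -0.99, limma adjusted p = 0.381).

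Interferon, immediate early and B cell genes leaned higher, each largely through a single library. In the type I interferon list 26 of 28 genes were above 0 (median 0.56), but the average relative to WCN was 0.01, 1.48 and 0.15 in PCN1, PCN2 and PCN3, and the median was 0.07 without PCN2 and 0.84 without PCN1. In the immediate early and heat shock list 27 of 29 were above 0 (median 0.58), with averages of 1.58, 0.35 and 0.04, and the median without PCN1 was 0.14. Fos, an immediate early transcription factor, was at 131.1, 116.2 and 119.5 RPKM in WCN and at 1009, 270.0 and 95.1 RPKM in PCN, so PCN1 was high and PCN3 lay below all WCN libraries. B cell and plasma cell genes had a median of 0.46, which was 0.04 without PCN1.

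Regulators and targets of NF-kB had averages relative to WCN of 0.66, 0.46 and 0.13 in PCN1, PCN2 and PCN3. Of 25 tested genes 20 were above 0 (51.1% of all genes), 7 (28.0%) were higher without overlap (10.9% of all genes) and none lower, and 1 was called (Zc3h12a). The median was 0.21, and it was 0.09 without PCN1 and 0.12 without WCN2 but 0.32 to 0.34 without PCN2, PCN3 or WCN1. Bcl3, a nuclear partner of NF-kB, was at 28.6, 39.0 and 39.2 RPKM in WCN and at 60.1, 55.1 and 56.0 RPKM in PCN (log2 difference 0.69 ± 0.19, limma adjusted p = 0.176). Nfkbia, the inhibitor that NF-kB itself induces, was at 119.4, 82.7 and 113.0 RPKM in WCN and at 127.1, 89.9 and 84.8 RPKM in PCN, with overlap. Neutrophil chemokines and markers had 17 of 19 genes above 0 and a median of 0.49, which was 0.28 without PCN2, and 5 (26.3%) were higher without overlap (10.9% of all genes). Their averages were 0.55, 1.34 and 0.28 in PCN1, PCN2 and PCN3. S100a8, a neutrophil marker, was at 7.64, 14.0 and 1.98 RPKM in WCN and at 14.8, 18.1 and 8.36 RPKM in PCN, and its groups overlapped. S100a9 was at 18.6, 33.6 and 5.49 RPKM in WCN and at 57.6, 55.3 and 19.3 RPKM in PCN, also with overlap (log2 difference 1.35, limma adjusted p = 0.413).

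Apc itself was measured as the mutated gene. It was at 9.45, 11.8 and 10.4 RPKM in WCN and at 14.4, 13.9 and 17.2 RPKM in PCN, so the groups did not overlap (log2 difference 0.50 ± 0.18, limma adjusted p = 0.251). A nonsense allele can still be transcribed and counted, so the level of Apc is no check of the genotype labels. Of 17 tested genes of the destruction complex and TCF factors none was called, 5 (29.4%) were higher and 3 (17.6%) lower without overlap, beside 10.9% and 10.4% of all genes. The median was 0.11, and leaving out 1 library moved it between -0.02 (without WCN1) and 0.20 (without WCN2). Ctnnb1, which encodes beta-catenin, was at 105.5, 134.3 and 137.7 RPKM in WCN and at 137.9, 157.1 and 123.0 RPKM in PCN, with overlap.

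Wnt targets and stem cell genes had 17 of 22 members above 0 (median 0.21) and no call, and their average relative to WCN was -0.06, 1.20 and 0.13 in PCN1, PCN2 and PCN3. Without PCN2 the median was -0.01, and without PCN3 it was 0.44. Notum, a secreted Wnt inhibitor, was at 0, 0 and 0.02 RPKM in WCN and at 0.08, 3.39 and 1.29 RPKM in PCN (log2 difference 1.65, limma adjusted p = 0.382). Sox9, a transcription factor of crypt base cells, was at 69.6, 49.1 and 67.1 RPKM in WCN and at 58.1, 85.2 and 64.7 RPKM in PCN, with overlap. The list of 19 genes that the study names for genotype or tumor, which were chosen on these samples and are not independent of them, had 12 above 0, a median of 0.26 and 1 call.

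PCN2 carried most of the largest uncalled rises that had an unadjusted p under 0.01, no overlap and a mean of at least 5 RPKM. Of the 10 largest rises under that rule 9 were highest in PCN2 and 1 in PCN3, whereas the 12 called rises were highest in PCN1 3 times, in PCN2 6 times and in PCN3 3 times. Pla2g2a, a secreted phospholipase that kills Gram-positive bacteria, was at 365, 149.6 and 389 RPKM in WCN and at 575, 4554 and 765 RPKM in PCN (log2 difference 2.18, limma adjusted p = 0.204). Adenomas had 12621 to 14886 RPKM of it. Cxcl6, a chemokine that draws neutrophils, was at 0.32, 0.53 and 0 RPKM in WCN and at 1.03, 29.8 and 2.78 RPKM in PCN (log2 difference 2.83). The transcription factor gene T (brachyury) was at 0, 0.04 and 0.10 RPKM in WCN and at 0.53, 17.6 and 1.83 RPKM in PCN (log2 difference 2.69). In each of these PCN2 stood apart from the other Pirc libraries, which were still above WCN.

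Without PCN2 the log2 differences were 1.26 for Pla2g2a, 2.43 for Mmp7, 1.58 for Cxcl6 and 1.51 for T, none past the threshold, while Defa24 (6.55, limma adjusted p = 0.000549) and Defal1 (5.57, limma adjusted p = 0.000344) stayed called. Defa24 was at 1039, 1072 and 728 RPKM in PCT, and Defal1 at 377, 293 and 280.3 RPKM, so both were higher in all 3 adenoma libraries than in any PCN library. Slc15a1, a peptide transporter, was the exception to the PCN2 pattern, at 0.10, 6.01 and 0.73 RPKM in WCN and at 14.7, 10.8 and 24.2 RPKM in PCN (log2 difference 3.26, limma adjusted p = 0.165).

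Among uncalled falls with an unadjusted p under 0.01, no overlap and a mean of at least 5 RPKM, Bc1 and Crym were the steepest. Crym, which binds thyroid hormone, was at 12.1, 8.28 and 23.5 RPKM in WCN and at 1.21, 1.63 and 0.38 RPKM in PCN (log2 difference -3.23 ± 0.64, limma adjusted p = 0.0761). Bc1, a short noncoding RNA, was at 39.7, 4.99 and 27.4 RPKM in WCN and at 0.53, 1.16 and 2.37 RPKM in PCN (log2 difference -3.43, limma adjusted p = 0.103). Kbtbd11 was at 5.92, 2.07 and 15.2 RPKM in WCN and at 0.99, 0.95 and 0.61 RPKM in PCN (log2 difference -2.25, limma adjusted p = 0.0962). In Bc1 and Kbtbd11 WCN2 was the lowest of its group and lay closest to the Pirc libraries.

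**Figure D4:**
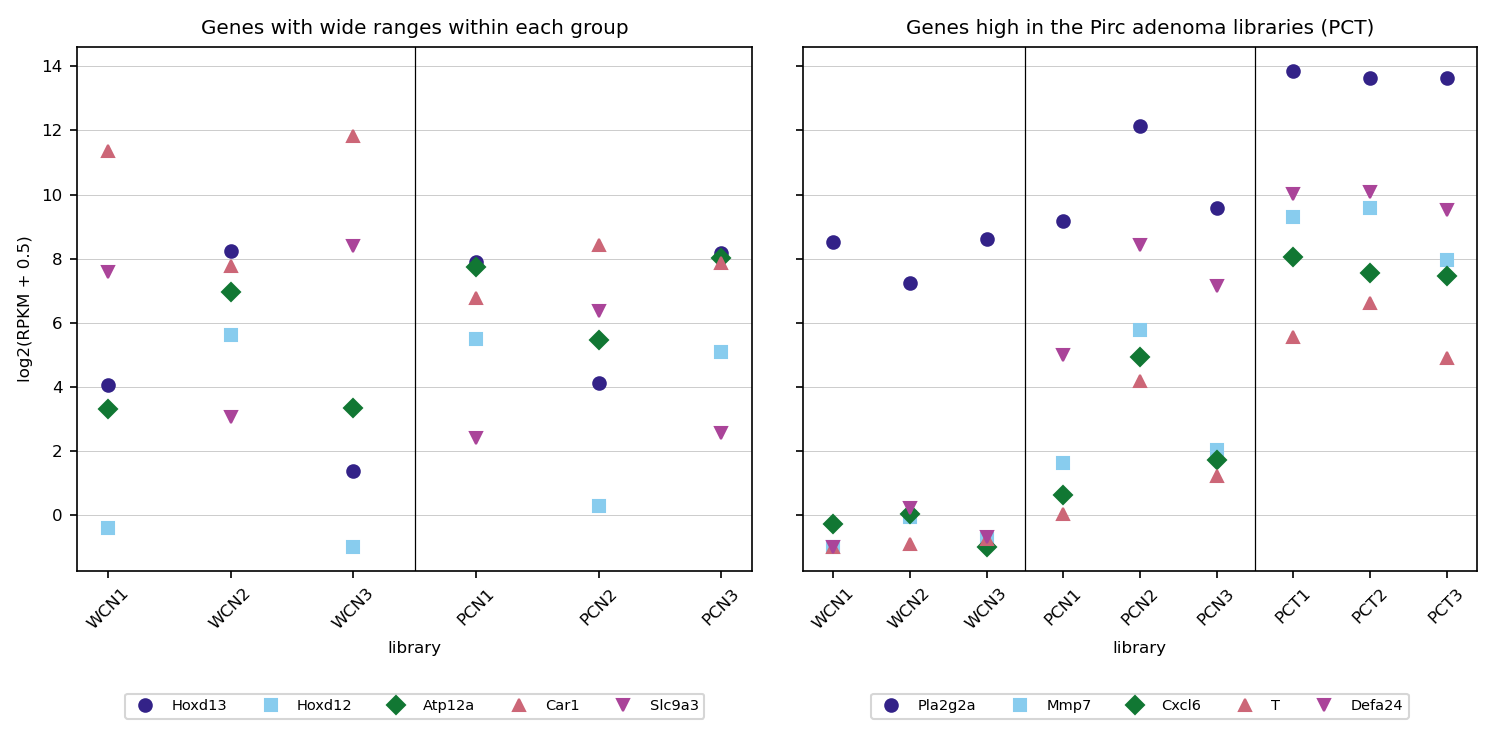
Levels as log2(RPKM + 0.5) by library. On the left, Hoxd13, Hoxd12, Atp12a, Car1 and Slc9a3 in the 6 libraries, where WCN2, PCN1 and PCN3 share high Hoxd13 (238.6 to 301.2 RPKM). On the right, Pla2g2a, Mmp7, Cxcl6, T and Defa24 in WCN, PCN and adenomas (PCT), where PCN2 is the highest normal-looking library in all 5.

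A pattern that cut across genotype, though not evenly, ran through the 6 libraries, and its genes were chosen after their values were seen. Hoxd13, a Hox gene of the hindmost gut, was at 16.2, 301.2 and 2.08 RPKM in WCN and at 238.6, 16.8 and 286.7 RPKM in PCN, so WCN2, PCN1 and PCN3 were high and the others low. The highest WCN library had 145 times the lowest. Slc9a3, a sodium-proton exchanger, was at 193.3, 7.84 and 333 RPKM in WCN and at 4.77, 82.7 and 5.40 RPKM in PCN, and Atp12a, a proton-potassium pump of the colon, was at 9.49, 123.3 and 9.63 RPKM in WCN and at 211.7, 43.9 and 257.9 RPKM in PCN. The same 3 libraries were low in Slc9a3, and high in Atp12a. Since PCN1 and PCN3 but only WCN2 fell on that side, the split was not balanced between the genotypes. Car1, a carbonic anhydrase of colonocytes, was at 2652, 217.0 and 3599 RPKM in WCN and at 109, 342 and 234.4 RPKM in PCN. It departed from the split, as PCN2 was low like PCN1 and PCN3 and not high like WCN1 and WCN3.

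The stretch of colon from which each piece was cut is not labelled, and its part in these levels was not tested. With the log2 level of Hoxd13 as a covariate, a fit added after the data were seen, 10 genes were called, 8 of them among the 15: Defal1 (adjusted p = 0.000824), Defa24 (0.000838), Cmah (0.00420) and, each at 0.0385, Defa6, Defa8, Icos, Ppp1r14a and Zc3h12a. Hoxa13, Duox2, Pfkfb3, Igf1, Ccdc50 and LOC691352 were not called in that limma fit.

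The same genotype comparison on spinach (PSN vs. WSN), in 6 other libraries, gave 0 calls of 11544 (0%) with limma, with 937 genes at an unadjusted p under 0.05 (8.12%). Of the 15 genes called on control diet 12 had a difference in the same direction on spinach, where 38.6% of all genes were above 0 and 61.3% below. In 4 of them the groups did not overlap, as in 5.58% (higher) and 9.92% (lower) of all genes. Defa24 was at 1.84, 4.38 and 2.11 RPKM in WSN and at 8.56, 18.4 and 26.8 RPKM in PSN, and Defal1 was at 0.65, 0.42 and 0.31 RPKM in WSN and at 2.28, 8.10 and 6.24 RPKM in PSN. Both were thus higher in every Pirc library on spinach, at levels below those of every PCN library. Their log2 differences on spinach were 2.43 and 2.52, beside 7.34 and 6.31 on control diet.

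Cmah was at 64.9, 91.2 and 99.9 RPKM in WSN and at 84.8, 39.9 and 67.8 RPKM in PSN, so that the genotypes overlapped (log2 difference -0.45), and all PSN libraries were above all PCN libraries. Hoxa13, at 0.30, 0.47 and 0.40 RPKM in WSN and 0.66, 0.94 and 1.16 RPKM in PSN, was higher in Pirc there (log2 difference 0.66), and Igf1 (-0.40) and Pfkfb3 (-0.32) also had the opposite sign. Zc3h12a (0.13) and Duox2 (0.40) were near 0 or slightly above it. The difference between diets itself was tested as a genotype by diet term, which called 0 of 11544 genes (0%), with 585 at an unadjusted p under 0.05 (5.07%). Its smallest adjusted p among the 15 was 0.414, shared by Cmah, Defa24, Hoxa13, Igf1 and Pfkfb3, so none of the 15 was shown to differ in its genotype effect between diets. Leaving out PCN1 gave 3 calls of this term, namely Cmah (adjusted p = 0.00926), Defa24 (0.0182) and Defal1 (0.0231) by limma.

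**Figure D5:**
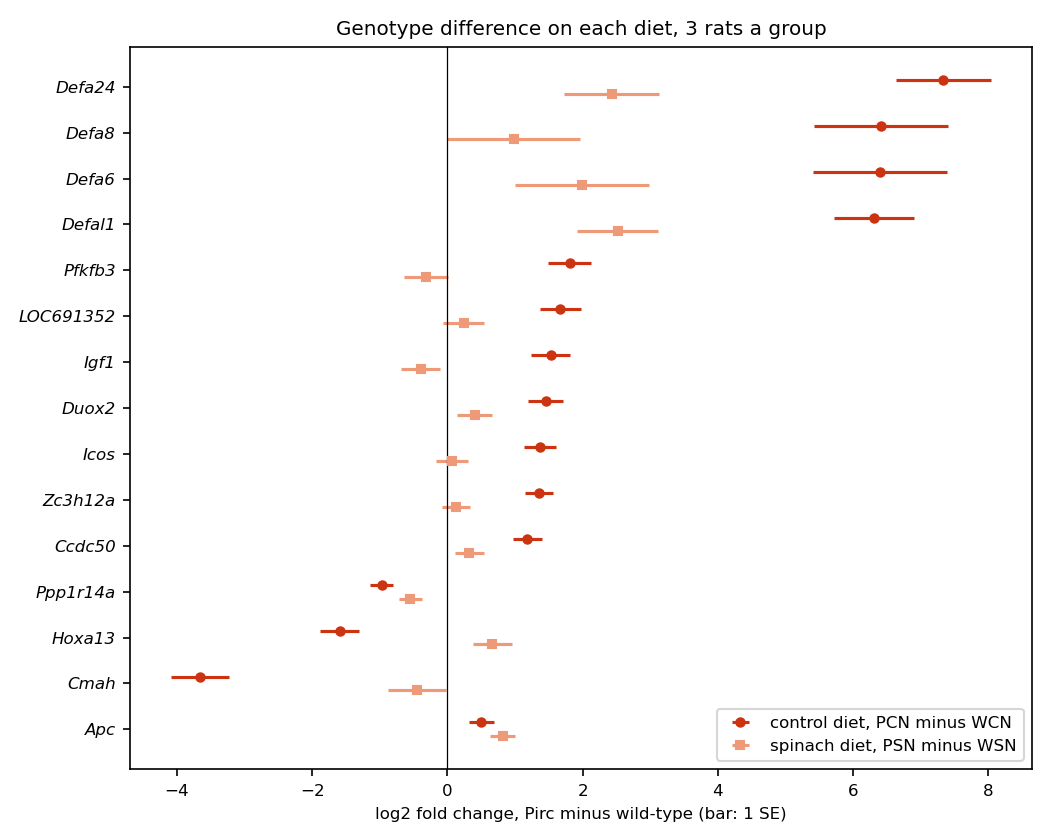
Log2 difference between Pirc and WT colon, with bars of 1 SE, on control diet and on spinach for 14 of the 15 called genes and Apc. The defensins Defa24 and Defal1 lie above 0 on both diets (7.34 and 6.31 beside 2.43 and 2.52), Cmah lies at -3.66 on control diet and at -0.45 on spinach, and Apc at 0.50 and 0.82.

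Apc was again higher in Pirc on spinach without overlap, at 10.8, 11.2 and 7.78 RPKM in WSN and 19.0, 19.1 and 15.1 RPKM in PSN (log2 difference 0.82 ± 0.18, limma adjusted p = 0.505). Smooth muscle genes had a median log2 difference of -0.29 on spinach beside -0.75 on control diet, where the median of all genes was -0.07 and 0.01. Interferon (-0.02), immediate early (-0.41), NF-kB (-0.20) and T cell and NK genes (-0.18) had medians near or below 0 on spinach. Medians of the 6 tested alpha-defensins (1.49) and other Paneth cell products (0.33) were above it. Of these 6 defensins, 5 were above 0, but only Defa24 and Defal1 were higher without overlap (5.58% of all genes were), and RatNP-3b was at -0.58. All 6 had to be high somewhere to pass the filter on low values. Across the 11544 genes the differences on control diet and on spinach correlated at 0.237 (Pearson), a description over genes that share libraries within each diet and are not independent.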

How the data were processed

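Poly(A) RNA was made into stranded libraries and sequenced as pairs of 75 bases, per the labels and the study's methods. The authors deposited RPKM values rounded to 2 decimals for 17378 entries. Which build, annotation and alignment settings they used is not given in the sources used here. As RPKM values are not counts, no count model was run. Of the entries, 26 whose names had turned into dates were left out, and 11544 that reached 1 RPKM in 3 or more of the 18 libraries were tested. One limma 3.58.1 fit (R 4.3.3, trend and robust moderation, 12 residual degrees of freedom) on log2(RPKM + 0.5) over the 6 groups of 3 gave all comparisons, with Benjamini-Hochberg adjustment over all genes and calls under 0.05. Libraries of a group were separate rats, while adenomas were matched to normal-looking colon of the same Pirc rats, which the fit did not model. Relative depth was read from the spacing of low values.

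Members and the 36 gene lists were chosen with earlier results of these data known. Genes named are those called, the study's own, up to 4 for each list (by level and by p), Apc, and the 10 largest rises and falls not called (unadjusted p under 0.01, no overlap, mean of at least 5 RPKM). Others, among them Hoxd13, Hoxd12 and Slc9a3, were chosen after their values were seen. A few genes under the rule are left unreported. List members are described by counts and medians, without a set test. Sequences are from RefSeq (GRCr8), where 20 of 33 genes looked up had 1 window. Alternatives changed the pseudocount, filter, scaling, libraries, weights, moderation, threshold and block, and left out each library in turn.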

Additional observations from a re-analysis of the deposited data

How the results depend on the processing

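The count of 15 genes called between PCN and WCN was 16 with a pseudocount of 0.1, 6 with 1, 11 without the filter on low values, 8 with a filter of 5 RPKM, 16 with median-of-ratios scaling, 11 without limma's trend and robust options, 72 with library weights and 32 at an adjusted p under 0.1. Fits over the 12 normal colon libraries, in which no rat gave more than 1 library, called 4 genes (Defa24 and Defal1 at an adjusted p of 0.00564, Cmah and Zc3h12a at 0.0426 by limma), and the 6 libraries alone called 0, with 1656 genes at an unadjusted p under 0.05. Leaving out 1 library gave 3 to 14. Alternatives chosen after seeing the data gave 2 (12 normal libraries without PCN2), 10 (Hoxd13 as a covariate) and 5 (Hoxd13 as a covariate in 12 libraries).

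WT and Pirc libraries with the same number came from different rats. Deviations from the group means correlated at -0.0113, -0.242 and -0.0545 in same-numbered libraries of PCN and WCN. In libraries of unlike number they correlated at -0.202 to 0.241. No pairing by number was seen, but 3 libraries a group cannot exclude a shared batch. With the replicate block the counts were 16 for PCN vs. WCN and 2 for the genotype by diet term (Defa24 and Defa8), beside 15 and 0. Leaving out 1 library gave 0 to 3 calls of the genotype by diet term, and PSN vs. WSN had 0 calls under every alternative. For single named genes, 235 values under alternatives lost a call, 21 gained one and none with a call changed sign; the causes were not tested. Read totals, the position along the colon and the muscle share of each piece are unknown, and 3 libraries a group limit what can be called.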
